A study of Mus musculus with 6 samples.

Results

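The adenovirus experiment compared a single pair of mouse skin wounds, 1 with stabilised beta-catenin and 1 control, and it holds 2 of the 6 arrays of the series. Both arrays were taken by their titles, and each group has 1 array, so no value below has a replicate check and no test was possible. Both mice were 2 months old, were labelled as of a C57/BL6 background and were homozygous for a floxed exon 3 of the beta-catenin gene, Ctnnb1 (genotype β-Catenin flox/flox, exon 3). The array called stabilised here came from the mouse given an adenovirus that carries Cre recombinase (Ad-CRE), and the control array from the mouse given the same kind of virus with green fluorescent protein (Ad-GFP). Total RNA was taken from the full thickness of a dorsal skin wound on day 8 after injury, and beta-catenin had been altered before the injury. The other 4 arrays, used here only as a yardstick, came from wounds of the same day in mice with floxed exons 2 to 6 of Ctnnb1 that were given tamoxifen. Of these, 2 mice also carried Cre-Esr1, a Cre that tamoxifen switches on (knockdown), and 2 lacked it (tamoxifen control). Replicate 1 of each tamoxifen group was 5 months old and replicate 2 was 2 months old. The virus reaches the cells it infects rather than a chosen cell type, and the labels do not say which cells or what share of them recombined.

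Beta-catenin is a cell adhesion protein and the nuclear carrier of the canonical Wnt signal. Without a Wnt ligand it is phosphorylated by a complex of Apc, Axin and Gsk3b at residues encoded by exon 3 and is then degraded, so a protein that lacks exon 3 is stable and keeps activating genes with the TCF and LEF transcription factors. In skin, this pathway is known for forming and renewing hair follicles, and in healing wounds it is known to be active in dermal fibroblasts during the proliferative phase, when granulation tissue is laid down.

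All values are log2 signals of bead array probes as deposited, on a scale with equal quantiles on every array, and a difference is always stabilised minus GFP control, so 1 log2 unit is 2-fold. A probe counts as detected where its detection p-value, from the scanner's negative controls, is under 0.01. The stabilised array had 15217 detected probes of 45281, the fewest of the 6, against 16353 for the GFP control and between 15853 and 16656 for the tamoxifen arrays. The median raw intensity was 146.1 on the stabilised and 151.6 on the GFP control array. Precision is limited by there being 2 arrays. A gene is given by its brightest probe among those detected on both arrays, and levels of different genes are never compared, since probes differ in how strongly they bind.

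Several probes set 1 adenovirus array apart from all 5 others, and they bear on every comparison below. H2-Ea, the alpha chain of the MHC class II molecule I-E, read 13.47 on the stabilised array and 4.71 to 4.97 on the 5 others. C57BL/6 mice are known to make no H2-Ea transcript, so the stabilised array goes against the strain background in its label at this gene. Further probes for the same gene complex behaved alike. For H2-D1, a class I heavy chain, 1 of 4 probes read 13.40 against 4.92 to 5.46 on the others, while its remaining probes differed between the adenovirus arrays by 0.20 to 0.57. For H2-K1, another class I heavy chain, 1 probe read 12.24 against 7.91 to 9.08, while its other probes differed by -0.82 and 0.26. A probe for H2-Q5 read 10.98 against 5.16 to 6.32. The haemoglobin gene Hbb-b2 read 8.15 on the stabilised array and 4.60 to 5.12 on the others, although knockdown replicate 2 had almost as much Hba-a1 (14.71 against 14.94).

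The GFP control array stood apart in its own way. Fcer1g, the common gamma chain of Fc receptors on myeloid cells, read 4.71 there, below detection, and 12.94 to 14.06 on the 5 others. Ifi205, an interferon-induced gene on the same chromosome, read 4.91 there and 9.23 to 10.04 elsewhere, and the homeobox gene Hoxc10 read 5.01 there and 8.47 to 9.37 elsewhere. By a gap of at least 8-fold to all 5 other arrays, the stabilised array was above on 6 probes and below on 20, and the GFP control array was above on 4 and below on 3. Whether the 2 mice differ in genetic background was not tested, and with 1 mouse each such a difference and the effect of Cre cannot be told apart. Xist, which coats and silences an X chromosome in females, read 10.12 and 10.42 on the adenovirus arrays and 4.59 to 4.67 on the tamoxifen arrays, while the Y-linked Eif2s3y read 4.60 on both adenovirus arrays and 8.81 to 9.09 on the tamoxifen arrays. The adenovirus pair did not differ in these genes, but any distance from the tamoxifen arrays also holds the difference in sex.

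**Figure D1:**
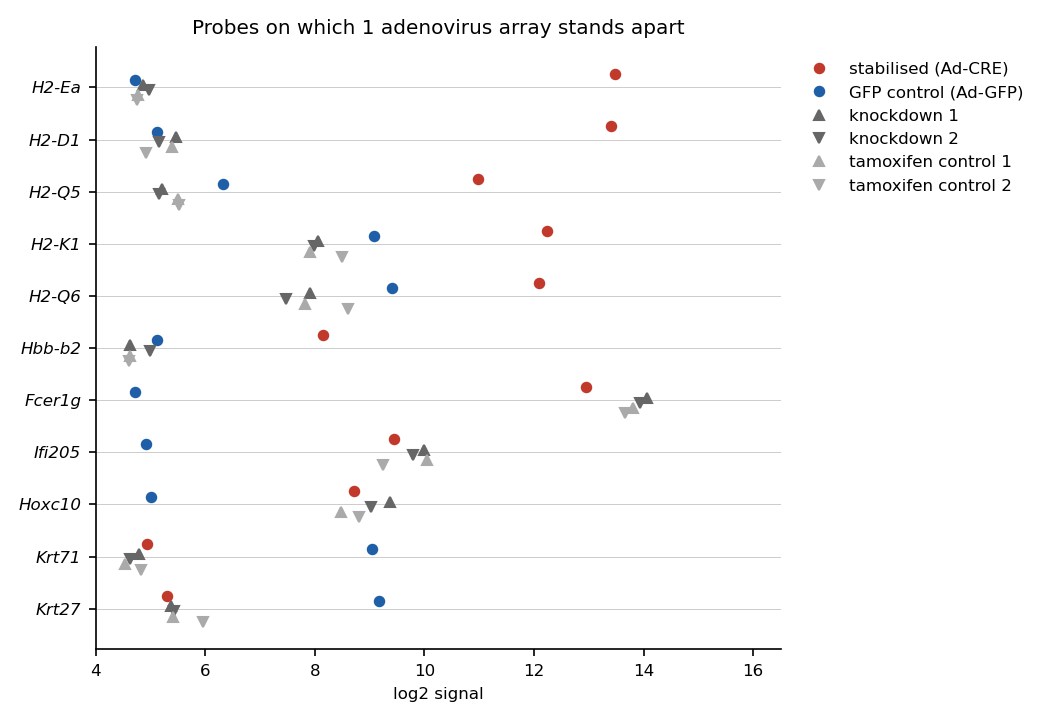
Log2 signal (horizontal axis) on all 6 arrays for 11 probes on which 1 adenovirus array stands apart, 1 row per probe and 1 marker per array. For H2-Ea the stabilised array reads 13.47 and the 5 others 4.71 to 4.97, and for Fcer1g the GFP control array reads 4.71 and the 5 others 12.94 to 14.06.

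Of the 19057 genes with a named probe, 9087 were detected on both arrays. Among these, 203 genes (2.23%) were at least 2-fold higher on the stabilised array and 237 (2.61%) at least 2-fold lower, with a median difference over all 9087 of 0.07. With the arrays scaled only to equal medians and no background correction the split was 50 higher and 218 lower, with the median over all genes at -0.10. At 4-fold the counts were 15 higher and 45 lower, and at 8-fold 1 higher and 14 lower, so the large differences lay mostly on the lower side. The gene at least 8-fold higher was Retnla, a secreted protein that marks alternatively activated macrophages, at 11.91 on the stabilised and 8.0 on the GFP control array. The largest difference of all was that of Sprr4, a small proline-rich protein of the cornified envelope, at 6.33 on the stabilised and 12.32 on the GFP control array (63.3-fold lower). Where a gene had several detected probes and its brightest was at least 2-fold apart (105 genes), all probes pointed the same way for 97 and all passed 2-fold for 56.

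**Figure D2:**
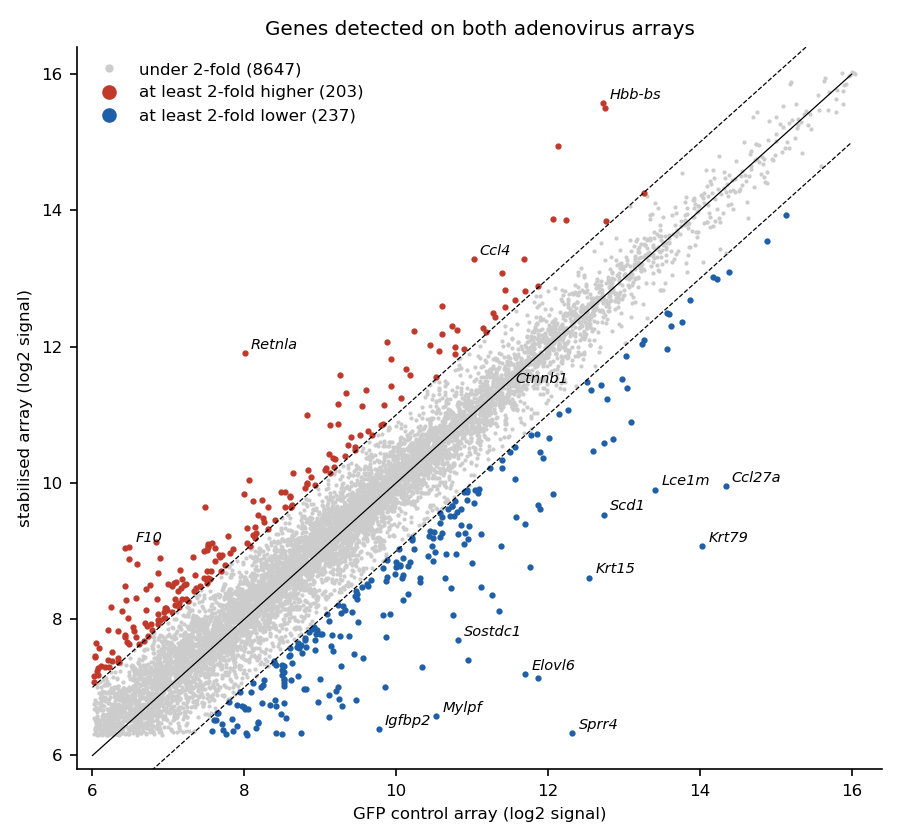
Log2 signal on the stabilised array (vertical axis) against the GFP control array (horizontal axis) for the 9087 genes detected on both, with equality as a solid line and 2-fold as dashed lines. The 203 genes at least 2-fold higher include Retnla and the haemoglobin gene Hbb-bs, and the 237 lower include Sprr4, Krt79, Elovl6 and Ccl27a, while Ctnnb1 lies on the line.

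The 2 arrays of each tamoxifen group are the only same-group pairs, and their 2 mice also differ in age. Between the knockdown replicates, 322 of 9198 genes detected on both (3.5%) were at least 2-fold apart, and between the tamoxifen control replicates 259 of 9435 (2.75%), against 440 of 9087 (4.84%) for the adenovirus pair. From 4-fold the counts were 60 for the adenovirus pair, 88 for the knockdown pair and 15 for the tamoxifen control pair, so the adenovirus pair then lay between the same-group pairs. For a gene's own yardstick, its difference was set beside its larger same-group gap. The difference exceeded both gaps for 185 of the 203 higher genes (91.1%) and 193 of the 237 lower genes (81.4%), and for 3580 of all 9087 (39.4%). The 203 and 237 genes were taken for their size, so their shares are higher by construction and are given as a description.

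**Figure D3:**
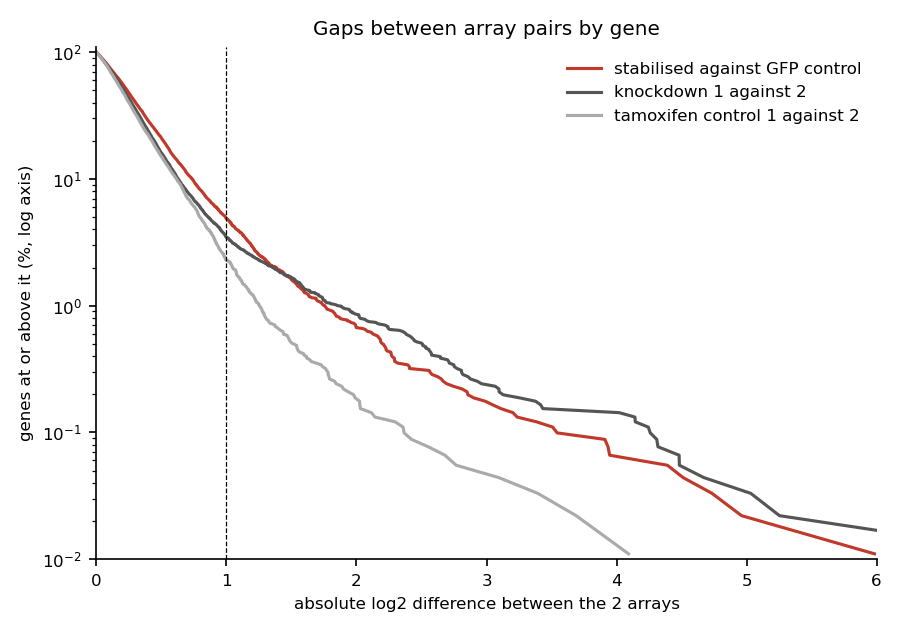
Share of the 9087 genes (vertical axis, log scale) with an absolute log2 difference of at least the value on the horizontal axis, for the adenovirus pair and both same-group tamoxifen pairs, with 2-fold as a dashed line. At 2-fold the adenovirus pair has 440 of these genes, the knockdown pair 314 and the tamoxifen control pair 207.

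The 4 tamoxifen arrays give each adenovirus value a place. Among the 203 higher genes the stabilised array lay above all 4 tamoxifen arrays for 147 (72.4%) and the GFP control array below all 4 for 115 (56.7%), with 74 genes in both classes. Among the 237 lower genes the stabilised array lay below all 4 for 161 (67.9%) and the GFP control array above all 4 for 118 (49.8%), with 61 in both. Over all 9087 genes the stabilised array lay above all 4 for 35.3% and below for 21.2%, and the GFP control array above for 23.7% and below for 21.2%. These genes were taken because the adenovirus arrays differ, which by itself raises such shares, so nothing is read from them beyond the place of each array. The place is given gene by gene below.

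Genes were then read in 37 lists of pathways and cell types. Over all genes detected on both arrays 2.23% were at least 2-fold higher and 2.61% lower, and each list's counts stand beside these shares. Over members detected on both arrays, the lists with the lowest medians held Wnt target genes (-1.0 over 12 members), sebaceous and skin lipid genes (-0.66 over 14), skeletal muscle genes (-0.58 over 14), hair follicle genes (-0.56 over 5) and cornified epidermis genes (-0.55 over 38). The highest medians belonged to alternatively activated macrophages (1.41 over 9), complement and coagulation (0.73 over 14), macrophages (0.65 over 29), erythroid genes (0.59 over 5) and endothelium (0.44 over 23). With members detected on 1 array added at their bounds the order differed: the skeletal muscle median was -1.21, the antimicrobial median -0.72 and the Wnt target median -0.65, while the erythroid median was 2.13. A gene detected on the GFP control array alone can only enter as lower or level. A gene detected on the stabilised array alone can only enter as higher or level. The side of such genes is thus set by the detection filter, and these medians are no separate evidence. In whole tissue, fewer cells of a type and less RNA per cell cannot be told apart.

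**Figure D4:**
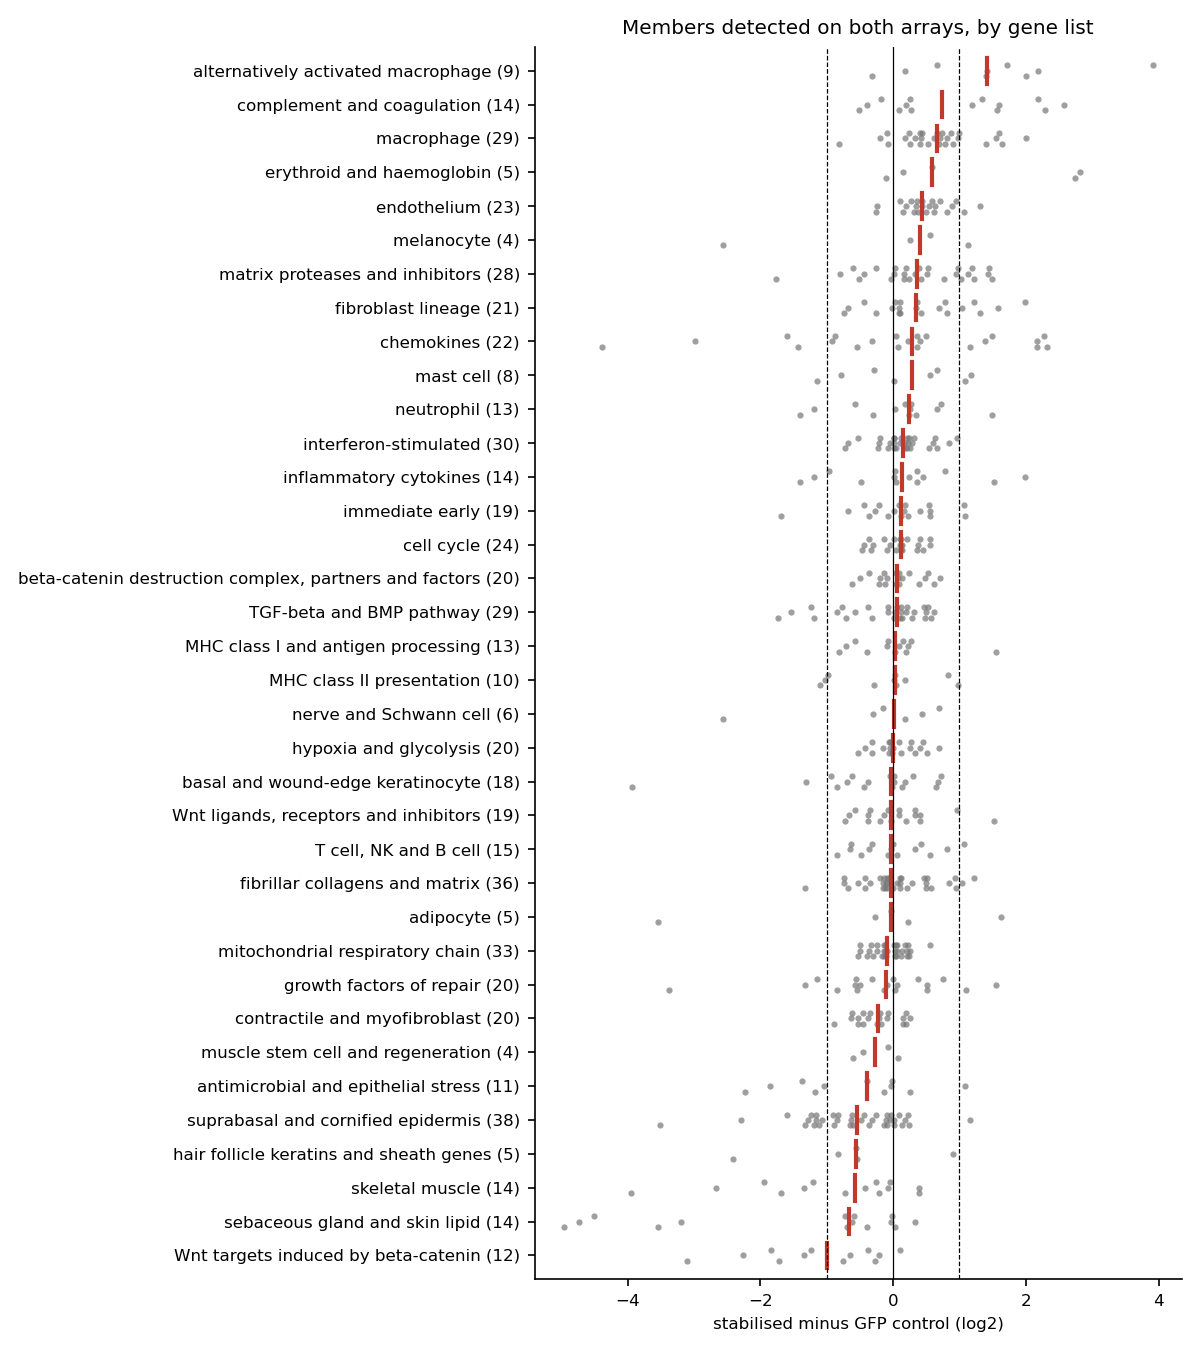
Difference between the stabilised and the GFP control array (log2, horizontal axis) for the members of each gene list detected on both arrays, as grey points, with each list's median as a red bar and the number of members in brackets. Dashed lines mark 2-fold. The Wnt target median is at -1.0 and that of alternatively activated macrophages at 1.41.

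Wnt target genes were lower on the array labelled stabilised. The list holds 29 genes with a probe that beta-catenin is known to induce in at least 1 tissue. Of these, 12 were detected on both arrays, 5 on the GFP control array alone, none on the stabilised array alone and 12 on neither. Over all genes, 698 were detected on the GFP control array alone and 209 on the stabilised array alone. None of the 12 on both arrays was at least 2-fold higher, and 6 were at least 2-fold lower (2.61% of all genes were). Of their 12 differences 11 were below 0 (3800 of 9087 over all genes). The list's direction is thus the opposite of the one its label names, and what lies behind this was not tested.

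The inhibitors and receptors of the pathway among these targets differed most. Sostdc1, a secreted antagonist of BMP and Wnt ligands, read 7.70 on the stabilised and 10.81 on the GFP control array (8.64-fold lower), with 9.73 to 10.93 on the tamoxifen arrays. Tnfrsf19, a TNF receptor family member of skin stem cells also called Troy, read 6.95 against 9.21, with 7.48 to 9.09 on the tamoxifen arrays. Apcdd1, a membrane inhibitor of Wnt signalling, read 8.6 against 10.31, with up to 10.94 on the tamoxifen arrays, and its other probe differed by -0.64. For these 3 genes the stabilised value lay below all 5 other arrays. Nkd2, which binds Dishevelled and dampens the pathway, read 6.97 against 8.81, and its difference of -1.84 exceeded its larger same-group gap of 1.39. Lgr5, the R-spondin receptor of follicle stem cells, was below detection on the stabilised array (5.05) and read 8.76 on the GFP control array, at least 5.50-fold lower, with 7.11 to 8.48 on the tamoxifen arrays.

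Transcription factors and cell cycle targets differed less. Sox9, a transcription factor of follicle stem cells, read 10.66 against 12.01 (2.55-fold lower), below the tamoxifen range of 10.89 to 11.76. Bmp4, a BMP ligand, read 7.25 against 8.50, and 7.25 to 7.95 on the tamoxifen arrays, so here the GFP control array was the high one. Axin2, the negative feedback scaffold most often used as a reporter of the pathway, read 8.32 against 8.97 (1.57-fold lower), inside the tamoxifen range of 8.10 to 9.26, although its difference of -0.65 exceeded its larger same-group gap of 0.44. Ccnd1, cyclin D1, read 10.89 against 11.65, a difference of -0.76 that is smaller than its same-group gap of 0.81. The remaining members on both arrays, Msx1, Twist1, Kremen1 and Cd44, differed by -0.38 to 0.11. Detected on the GFP control array alone and under 2-fold by their bounds were Nkd1, Wif1 and Myc, and Ctla4 was too close to the detection limit for a bound. With the members detected on 1 array at their bounds, the list median was -0.65 over 17 genes, Ctla4 being set at 0.

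Several of these targets are also follicle genes. Gland genes such as Krt79 were lowest on the stabilised array, while the inner root sheath keratins Krt71 and Krt27 were high on the GFP control array alone. In the wounds labelled as knockdown, the same 12 genes had a median of -0.36 against the tamoxifen controls, with a within-group SD of 0.22 for the list's median (2 arrays each). The 2 arrays of each group differ in age, so this SD also holds age and is not replicate spread alone. The part of follicle content in the Wnt target values was not tested.

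Promoters were read for this list, since most of its members differed in the same direction. Windows of 250 bases before to 50 after a gene's start were searched on both strands for CTTTGAA and CTTTGAT, forms of the core that TCF and LEF factors are known to bind. Windows covered 17 of the 29 listed targets, and Sostdc1, Lgr5, Apcdd1, Sox9 and Ccnd1 had none. The motif lay in 5 of the 22 windows of listed targets (22.7%), against 2842 of 32851 windows of all genes (8.65%) and 564 of 9460 windows of genes detected on both arrays (5.96%). Among the latter it lay in 15 of 227 windows of genes at least 2-fold lower (6.61%) and 11 of 180 of those higher (6.11%). Of the targets with a match, Dkk1, Edar and Sp5 were detected on neither array and Ctla4 on the GFP control array alone. Among the targets detected on both arrays a match was found for Tnfrsf19, in 1 of its 2 windows. Axin2, Bmp4, Nkd2, Msx1, Twist1 and Cd44 had windows without a match. The matching Tnfrsf19 window is shown for that reason with the motif in capitals (reverse strand of the searched form, RefSeq, build GRCm38.p6, minus strand of chr14:61037938-61038237). A match is a string of letters, not a bound site.
Tnfrsf19: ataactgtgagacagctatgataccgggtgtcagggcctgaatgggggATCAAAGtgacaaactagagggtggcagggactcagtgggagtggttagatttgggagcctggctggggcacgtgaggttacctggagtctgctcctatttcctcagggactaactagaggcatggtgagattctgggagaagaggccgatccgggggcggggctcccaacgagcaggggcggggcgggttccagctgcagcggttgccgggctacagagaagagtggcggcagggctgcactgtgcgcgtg

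Wnt ligands, receptors and inhibitors did not shift as a group. Of 19 members detected on both arrays 1 was at least 2-fold higher and none lower (2.23% and 2.61% over all genes). Their median was -0.03. Wnt2, a ligand of stromal cells, read 9.0 on the stabilised and 7.47 on the GFP control array (2.88-fold higher), above the tamoxifen range of 7.13 to 8.15. Wnt16 read 8.26 against 7.29, and its 3 probes ranged from 0.10 to 0.97. Ligands known from epidermis and follicle had no common direction: Wnt10a differed by -0.67, Wnt7b by -0.37, Wnt3a by -0.14 and Wnt4 by 0.41. Detected on the GFP control array alone were Wnt6 (at least 2.09-fold lower), Wnt3 (at least 1.78-fold lower) and the R-spondin ligand Rspo3 (at least 1.70-fold lower). Sfrp4, a secreted Wnt inhibitor, was detected on the stabilised array alone, at 7.24 against 5.95 (at least 2.34-fold higher).

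The core machinery of beta-catenin degradation and transcription was nearly level by its median of 0.06. None of its 20 detected members reached 2-fold in either direction, which says little in a list of this size (4.84% of all genes did). Ctnnb1 itself read 11.40 on the stabilised and 11.49 on the GFP control array, and its 3 other probes differed by 0.12, 0.25 and -0.32. No source used here places these probes relative to exon 3, so Ctnnb1 does not check the labels. The kinase gene Gsk3b differed by -0.36 (0.84 on its other probe), Axin1 by 0.13, Apc by -0.50 and the transcription factor gene Tcf7l1, a repressor of the pathway, by 0.48. The largest differences were those of Jup (plakoglobin, a close relative of beta-catenin in desmosomes) at 0.71 and of the cadherin gene Cdh3 at -0.63.

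Sebaceous gland genes gave some of the largest differences of the whole comparison. Of 14 members detected on both arrays, 5 were at least 2-fold lower and none higher (2.61% and 2.23% over all genes). Each of the 5 was lower by more than 8-fold. Krt79, a keratin of the follicle opening and gland duct, read 9.07 on the stabilised and 14.03 on the GFP control array (31.2-fold lower), with 11.50 to 13.56 on the tamoxifen arrays. Elovl6, which lengthens fatty acids, read 7.19 against 11.70, with 8.62 to 11.32 on the tamoxifen arrays. Scd1, the main fatty acid desaturase of the gland, read 9.54 against 12.74, with 10.91 to 12.71 on the tamoxifen arrays. For all of them the stabilised array was the lowest of the 6 and the GFP control array the highest. The lipid enzyme gene Alox12e (7.13 against 11.87) and the lipid droplet gene Cidea (7.41 against 10.95) showed the same order of arrays. Fa2h, which makes the hydroxylated lipids of sebum, was below detection on the stabilised array (5.35) and read 11.49 on the GFP control array, at least 36.4-fold lower.

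Not all lipid genes took part. Mgst1, a marker of the gland, differed by -0.02, and the lipid regulator Pparg, the citrate enzyme gene Acly and the droplet gene Plin2 differed by -0.04, 0.03 and 0.33. The epidermal barrier lipid genes Alox12b, Aloxe3 and Elovl4 differed by -0.39, -0.62 and -0.59. The median level of the 14 genes was 9.28 on the stabilised array, 11.74 for the GFP control and between 9.32 and 11.17 on the tamoxifen arrays.

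Inner root sheath keratins of the hair follicle were a mark of the GFP control array rather than of the stabilised array. Krt71 read 9.05 on the GFP control array, 4.93 on the stabilised array and 4.53 to 4.83 on the tamoxifen arrays, so it was detected on the GFP control array alone (at least 6.74-fold lower on the stabilised array). Krt27 read 9.18 there, 5.30 on the stabilised array and 5.38 to 5.96 on the tamoxifen arrays. Krt73 was detected on both, at 6.34 on the stabilised and 8.74 on the GFP control array, with 4.83 to 6.34 on the tamoxifen arrays. These are keratins of growing hair. Of the 30 genes of the list with a probe, 19 were detected on neither array and 6 on the GFP control array alone. Over all genes, 698 were detected on the GFP control array alone and 209 on the stabilised array alone. Krt84, a keratin of hair and nail, ran the other way at 7.01 against 6.11.

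In the epidermis the basal and wound edge keratinocyte genes were mostly level, while the outermost layer was lower. The keratins of basal cells, Krt5 and Krt14, differed by 0.02 and 0.01, and those of suprabasal cells, Krt1 and Krt10, by -0.05 and 0.01. Krt14 and Krt10 read close to 16, the top of the scale, where a difference can be compressed. Krt16 and Krt6b, keratins of wounded epidermis, differed by 0.30 and 0.68, and Krt17 by -0.94. The exceptions among 18 basal genes were Krt15, a keratin of follicle stem cells and resting basal cells, and Dst, a hemidesmosome linker. Krt15 read 8.61 on the stabilised and 12.54 on the GFP control array (15.3-fold lower), with 10.96 to 13.18 on the tamoxifen arrays. The 4 probes of Dst ranged from -1.31 to 0.70.

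Of 38 cornified layer genes detected on both arrays, 11 were at least 2-fold lower and 1 higher (2.61% and 2.23% over all genes). Their median was -0.55. Below 0 were 30 of 38 differences (3800 of 9087 over all genes). Most of the 11 belong to the late cornified envelope family of barrier proteins. Lce1m read 9.90 on the stabilised and 13.41 on the GFP control array (11.4-fold lower), with 12.25 to 13.49 on the tamoxifen arrays. Flg2, a filaggrin relative, read 9.40 against 11.70, with 11.05 to 11.35 on the tamoxifen arrays. In both genes the stabilised array alone was low. Lce1i, Lce1c, Lce1b, Lce1d and Lce1a1 differed by -1.60, -1.33, -1.29, -1.23 and -1.11, and Lce3b and Lce3c by -1.16 and -1.07. Loricrin, Lor, the major envelope protein, differed by -0.32 with both values above 15. Krt77, a keratin of sweat ducts and epidermis, was below detection on the stabilised array (5.18) and at 11.29 on the GFP control, at least 31.8-fold lower, and the tamoxifen arrays lay between at 6.96 to 10.37. Tgm3, a transglutaminase, was the member at least 2-fold higher, at 7.64 against 6.48.

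Antimicrobial genes of the epithelium were also lower in part. Of 11 detected on both arrays, 5 were at least 2-fold lower and 1 higher (2.61% and 2.23% over all genes). Defb14, a beta-defensin, read 9.84 on the stabilised and 12.06 on the GFP control array, with 9.72 to 10.34 on the tamoxifen arrays, so the GFP control array was the high one. Defb6, another beta-defensin, was below detection on the stabilised array at 5.30 and read 12.91 on the GFP control array, at least 97.9-fold lower, and 10.11 to 12.99 on the tamoxifen arrays. That was the largest bound among genes lower on the stabilised array, and here the stabilised array was the outlying one. The higher gene was the protease inhibitor Wfdc12, at 13.85 against 12.77.

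Skeletal muscle genes, from the thin muscle sheet under mouse skin, were lower on the stabilised array. Of 14 members detected on both arrays, 6 were at least 2-fold lower and none higher (2.61% and 2.23% over all genes). A further 17 were detected on the GFP control array alone. Of these 11 passed 2-fold by their bounds (13.2% of all genes detected on that array alone did). The median was -0.58 over the 14 and -1.21 over all 31 with bounds, where the 17 added genes could only enter as lower or level. Acta1, skeletal actin, was below detection at 5.20 on the stabilised array and read 11.30 on the GFP control array (at least 32.0-fold lower), with 11.34 to 14.92 on the tamoxifen arrays. Mylpf, a fast myosin light chain, read 6.58 against 10.53, with 10.43 to 14.67 on the tamoxifen arrays. Myl1, the other fast light chain, was at least 58.0-fold lower by its bound, and the developmental myosin gene Myh8 at least 19.4-fold. The GFP control array was itself low for muscle: the median level of the 14 genes was 7.41 on the stabilised array, 8.82 for the GFP control and between 9.25 and 11.64 on the tamoxifen arrays. Same-group gaps of the tamoxifen arrays were as wide as many of the differences. For Tnni2, fast troponin I, the difference was -1.95 and the larger same-group gap 2.40, and for Atp2a1, the calcium pump of fast muscle, they were -2.67 and 1.97. The regeneration genes Chrng, Chrna1 and Myog were detected on the GFP control array alone, and Des, desmin, differed by -0.45.

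**Figure D5:**
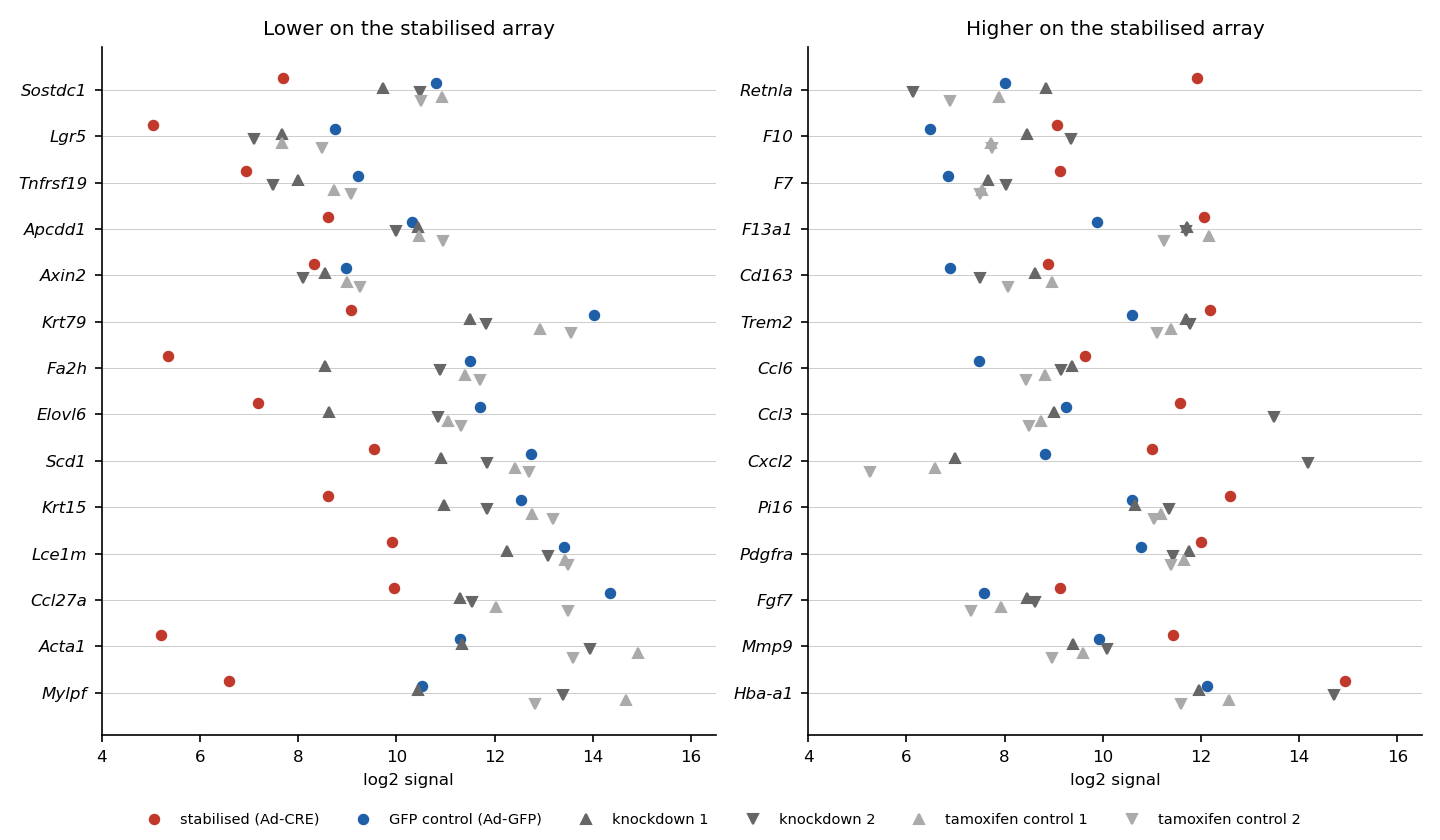
Log2 signal (horizontal axis) on all 6 arrays for 14 genes lower (left) and 14 genes higher (right) on the stabilised array, 1 marker per array. Krt79 reads 9.07 on the stabilised array and 11.50 to 14.03 on the 5 others, while for Ccl3 and Cxcl2 knockdown replicate 2 reads above the stabilised array.

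In the dermis the main collagens were level. Col1a1 read 15.01 on the stabilised and 15.15 on the GFP control array, and Col1a2 and Fn1, fibronectin, differed by -0.10 and -0.09. Col3a1 differed by 0.50 on its brightest probe and by -0.57 on its other probe. Of 36 matrix genes detected on both arrays, 2 were at least 2-fold higher and 1 lower (2.23% and 2.61% over all genes). Counts this small say little about the list. Col5a3, a minor fibrillar collagen chain, read 9.82 against 8.6, above the tamoxifen range of 7.77 to 8.87. Plod2, the lysyl hydroxylase that sets collagen crosslinks, read 10.23 against 9.19, above the tamoxifen range of 8.18 to 9.37, and its relative Plod1 differed by 0.95. Basement membrane collagens Col4a1 and Col4a2 differed by 0.58 and 0.94. Col8a1, a short-chain collagen, was the lower one at 9.27 against 10.60.

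Contractile genes of myofibroblasts showed no 2-fold difference in either direction among 20 (4.84% of all genes did), with a median of -0.23. A count of none in a list of this size says little. Acta2, smooth muscle actin and the usual myofibroblast marker, read 14.48 on the stabilised and 14.33 on the GFP control array, and its 4 probes ranged from -0.54 to 0.37. Myl9 and Mylk, a regulatory light chain of smooth muscle myosin and the kinase that acts on it, differed by -0.63 each, more than their larger same-group gaps of 0.14 and 0.18.

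Fibroblast lineage genes separated into markers that were level and markers that were higher. Of 21 detected, 5 were at least 2-fold higher and none lower (2.23% of all genes were higher), with a median of 0.35. Pi16, a marker of adventitial fibroblasts, read 12.60 on the stabilised and 10.60 on the GFP control array (3.98-fold higher), with 10.65 to 11.34 on the tamoxifen arrays. Clec3b, tetranectin, read 11.13 against 9.55, with 9.15 to 9.81 on the tamoxifen arrays. Pdgfra, the PDGF receptor of dermal fibroblasts, read 11.99 against 10.77, with 11.38 to 11.75 on the tamoxifen arrays. In these 3 genes the stabilised array was the highest of the 6. Dlk1, a Notch-like protein of lower dermal fibroblasts in young mouse skin, read 11.56 against 10.52, but 10.44 to 12.28 on the tamoxifen arrays. Cd34, shared with endothelium, differed by 1.30. The general markers Thy1, Dcn and S100a4 differed by -0.02, 0.11 and 0.08, and the proteoglycan gene Lum by -0.74.

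BMP and TGF-beta genes had 4 of 29 members at least 2-fold lower and none higher (2.61% and 2.23% over all genes). Their median was 0.06. Grem1 and Fst, secreted antagonists of BMPs and activins, read 6.30 against 8.04 and 8.13 against 9.32, and both stabilised values lay below all 4 tamoxifen arrays. Ccn2, a matrix protein induced by TGF-beta, read 11.24 against 12.78, with 10.17 to 11.79 on the tamoxifen arrays, so the GFP control array was the high one. The ligand genes Tgfb1, Tgfb2 and Tgfb3 differed by 0.62, 0.20 and -0.71, and the receptor genes Tgfbr1 and Tgfbr2 by 0.21 and 0.01.

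Growth factors of repair were mixed. Fgf7 and Fgf10, which stromal cells make to act on keratinocytes, were both higher, at 9.12 against 7.58 and at 7.44 against 6.34. Their receptor gene Fgfr2 was lower, at 9.90 against 11.04, and the stabilised value lay below the tamoxifen range of 10.17 to 11.35. Igfbp2, which binds insulin-like growth factors, read 6.38 against 9.77 (10.5-fold lower), with 7.42 to 9.66 on the tamoxifen arrays. Igf2 read 8.85 against 10.18, and both adenovirus arrays lay below the tamoxifen range of 11.66 to 12.93. The angiogenic factor Vegfa read 9.63 against 9.62.

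Macrophage genes were higher on the stabilised array. Of 29 detected on both arrays, 5 were at least 2-fold higher and none lower (2.23% and 2.61% over all genes). Of their differences 25 were above 0 (5285 of 9087 over all genes), with a median of 0.65. Trem2, a lipid-sensing receptor of macrophages, read 12.19 on the stabilised and 10.60 on the GFP control array (3.02-fold higher), with 11.10 to 11.77 on the tamoxifen arrays. Cd163, the scavenger receptor for haemoglobin bound to haptoglobin, read 8.89 against 6.9, with 7.51 to 8.97 on the tamoxifen arrays. Clec7a, the beta-glucan receptor Dectin-1, read 9.07 against 7.53, with 7.54 to 8.78 on the tamoxifen arrays. The general markers differed less, Csf1r by 0.87, Adgre1 by 0.61 with probes from -0.34 to 0.61, and Lyz2 by 0.78. For the list as a whole the GFP control array was the low one, with a median level of 10.18 against 11.22 on the stabilised array and 10.86 to 11.26 on the tamoxifen arrays. Fcer1g, which is among the 3 members detected on the stabilised array alone, belongs to the probes that set the GFP control array apart.

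Genes of alternatively activated macrophages, the tissue repair type, had the highest median of the lists over members detected on both arrays. The erythroid median was higher where bounds were added, but its added members were detected on the stabilised array alone and could only enter as higher or level. Of 9 detected on both arrays, 6 were at least 2-fold higher (2.23% over all genes). Retnla read 11.91 against 8.0 (15-fold higher), with 6.13 to 8.85 on the tamoxifen arrays, so the stabilised array alone was high. Folr2, a folate receptor of resident macrophages, read 10.85 against 9.13, with 9.71 to 10.78 on the tamoxifen arrays. Mrc1, the mannose receptor, read 11.58 against 10.18, with 11.29 to 12.09 on the tamoxifen arrays, and Clec10a, a galactose lectin, 8.58 against 7.17, with 8.01 to 8.67. For Mrc1 and Clec10a the stabilised value was ordinary and the GFP control value was below all others. Arg1, arginase and a classical marker of this state, ran slightly the other way at 12.10 against 12.42, and Lyve1, shared with lymphatic vessels, was below detection on the stabilised array.

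Complement and coagulation genes followed the macrophage genes. Of 14 detected on both arrays, 7 were at least 2-fold higher and none lower (2.23% and 2.61% over all genes). Their median was 0.73. That median was 0.43 with bounds or with equal medians, 0.28 with a detection p under 0.001 and 0.19 with no detection filter. F10 and F7, clotting factors that tissue macrophages also make, read 9.07 against 6.49 (5.99-fold higher) and 9.13 against 6.84 (4.89-fold higher). On the tamoxifen arrays F10 read 7.73 to 9.35 and F7 7.5 to 8.02. F13a1, the fibrin crosslinking subunit that macrophages express, read 12.07 against 9.88, with 11.25 to 12.16 on the tamoxifen arrays. In these 3 genes the GFP control array was the lowest of the 6. C4b and Cfb, complement components, read 12.31 against 10.74 and 9.53 against 8.18, and both stabilised values lay above the tamoxifen ranges of 9.69 to 10.57 and 7.72 to 8.45. The 3 probes of C4b ranged from 0.42 to 1.57. Cfp, properdin, read 13.29 against 11.69, and Cd55, a brake on complement, 8.70 against 7.51.

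Matrix proteases were higher in part, with 7 of 28 at least 2-fold higher and 1 lower (2.23% and 2.61% over all genes). Their median was 0.36. Mmp9, gelatinase B, read 11.42 on the stabilised and 9.93 on the GFP control array, above the tamoxifen range of 8.97 to 10.08. Mmp12, the macrophage elastase, read 9.05 against 7.61, with 8.72 to 9.86 on the tamoxifen arrays. Ctsl, a lysosomal cathepsin, read 10.09 against 8.87, and both adenovirus arrays lay above the tamoxifen range of 6.54 to 8.10. Plau, urokinase, showed the same order at 12.27 against 11.14 with 9.22 to 9.61 on the tamoxifen arrays. The lower one was Mmp11, stromelysin 3 of fibroblasts, at 9.18 against 10.95, below the tamoxifen range of 10.22 to 10.55. The collagenase gene Mmp13 differed by 1.02 on its brightest probe and by 0.50 on the other, and the inhibitor genes Timp1 and Timp2 differed by 0.17 and 0.19.

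Chemokines ran both ways. Of 22 detected on both arrays, 7 were at least 2-fold higher and 4 lower (2.23% and 2.61% over all genes). Ccl27a, the keratinocyte chemokine that draws T cells to skin, read 9.95 on the stabilised and 14.34 on the GFP control array (21.0-fold lower), with 11.29 to 13.50 on the tamoxifen arrays. Ccl21a, made by lymphatic vessels, read 8.77 against 11.76, with 10.89 to 11.84 on the tamoxifen arrays. Near-identical copies of Ccl21 exist in the mouse genome, and the probe named Ccl21c gave a like difference of -3.24, so the copies cannot be told apart here. Ccl19 and Cxcl9 were also lower, with differences of -1.6 and -1.44, the latter within its larger same-group gap of 1.56. Ccl17 was detected on the GFP control array alone (at least 3.12-fold lower). Some chemokines known from myeloid cells were among the higher ones. Ccl6 read 9.65 against 7.48, with 8.43 to 9.38 on the tamoxifen arrays. Ccl3 and Ccl4, also called MIP-1 alpha and beta, read 11.58 against 9.26 and 13.29 against 11.02. Cxcl2, a neutrophil attractant, read 11.00 against 8.83. For these last 3 genes the same-group gaps were wider than the differences, at 4.48, 5.25 and 7.20, with knockdown replicate 2 far above its partner.

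Cytokines and neutrophil genes showed no common direction. Il1a, made by keratinocytes, read 7.12 against 8.53, and Osm, made by myeloid cells, 9.75 against 8.23, and both differences (-1.41 and 1.52) were within their same-group gaps of 1.57 and 4.32. Il1b and Tnf differed by 0.78 and 0.35, with same-group gaps of 5.03 and 4.26. Among neutrophil genes, S100a8 and S100a9, which activated keratinocytes also make, were lower by 1.19 and 1.40 log2 units, less than their same-group gaps of 3.13 and 4.24, while Csf3r and Retnlg differed by 0.73 and 0.27. The acute phase gene Saa3 read 10.05 against 8.06.

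Red blood cell RNA was higher on the stabilised array. Hba-a1 read 14.94 on the stabilised and 12.13 on the GFP control array (7.02-fold higher), and Hbb-bt 15.50 against 12.75, with 4 probes from 2.64 to 2.99. On the tamoxifen arrays Hba-a1 read 11.60 to 14.71, with knockdown replicate 2 at the top. Alas2, the haem synthesis enzyme of red cell precursors, was detected on the stabilised array alone, at 8.57 against 5.57. Differences of this size also occurred within a group, where the larger gap of Hba-a1 was 2.75. Its part in other differences was not tested.

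Endothelial genes were higher by small amounts, with a median of 0.44 and 2 members past 2-fold (2.23% of all genes were). Of their 23 differences 21 were above 0 (5285 of 9087 over all genes). Tie1, an angiopoietin co-receptor, read 8.41 against 7.34, and Pecam1 and Cdh5, the general markers, differed by 0.34 and 0.62. Same-group gaps for Pecam1 and Cdh5 were 1.04 and 0.91, wider than these differences. Mmrn1, a marker of lymphatic vessels, went the other way. It was below detection on the stabilised array (4.57) and read 7.54 on the GFP control array, at least 2.37-fold lower, with 7.31 to 7.63 on the tamoxifen arrays.

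Lymphocyte and antigen presentation genes were mostly level. Over all genes 2.23% were at least 2-fold higher and 2.61% lower, so counts of 1 or 2 in these short lists say little. Of 15 T, NK and B cell genes 1 was at least 2-fold higher, Cd2 at 8.30 against 7.24, while the T cell receptor genes Cd3e and Cd3g differed by -0.48 and -0.85. Of 10 class II genes 2 were at least 2-fold lower, H2-Aa at 10.53 against 11.56 and H2-Oa at 6.52 against 7.62. Both belong to the gene complex in which the stabilised array stood apart at single probes. H2-Ab1 of that complex differed by -0.98, -0.66 and -0.08 on its 3 probes. For H2-Oa the larger same-group gap of 1.19 was wider than its difference. Cd74, the invariant chain, differed by -0.28. Of 13 class I genes 1 was at least 2-fold higher, H2-Q6 at 11.68 against 10.13, and it lies in the gene complex in which the stabilised array stood apart. Of 30 interferon-stimulated genes none reached 2-fold, which says little in a list of this size (4.84% of all genes did). The antiviral genes Isg15, Oas2 and Irf7 differed by -0.24, 0.10 and 0.54. For Isg15 both adenovirus arrays, at 12.38 and 12.61, lay above the tamoxifen range of 10.76 to 11.13, and for Irf7, at 10.94 and 10.40, above 7.80 to 8.77.

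Mast cell proteases were split, with Tpsab1 and Tpsb2, the tryptases, higher by 1.09 and 1.17 log2 units and Mcpt4, a chymase, lower by 1.15. For Mcpt4 the larger same-group gap was 1.175, wider than its difference. Tpsab1 was below detection on every tamoxifen array, at most 5.6, and detected on both adenovirus arrays (8.45 and 7.36). What sets the adenovirus pair apart from the tamoxifen arrays at this gene was not tested. Melanocyte genes were few and ran both ways, with a median of 0.40 over 4 members detected on both arrays and of -0.07 with bounds. Ednrb, the endothelin receptor of melanocyte precursors, was higher by 1.13 log2 units, less than its larger same-group gap of 1.41. Kit and Mlana differed by 0.56 and 0.25. Sox10, a transcription factor of melanocytes and Schwann cells, read 6.56 against 9.12, with 6.28 to 9.69 on the tamoxifen arrays, and Dct, a melanin enzyme, was below detection on the stabilised array (4.79) and read 8.88 on the GFP control array, at least 5.98-fold lower. Among fat genes Lpl, lipoprotein lipase, read 13.86 against 12.24, and adiponectin, Adipoq, was detected on the GFP control array alone.

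Several processes showed no 2-fold difference among their detected members. These were 24 cell cycle genes with a median of 0.11, 33 respiratory chain genes with a median of -0.09 and 20 hypoxia and glycolysis genes with a median of -0.00. Over all genes 440 of 9087 (4.84%) were at least 2-fold apart, so a count of none in lists of this size says little. The mitotic kinase gene Plk1 differed by 0.45, the replication genes Top2a and Mcm3 by -0.33 and -0.47, and the glucose transporter gene Slc2a1 by -0.06. Ccne2, a cyclin of entry into DNA synthesis, was detected on the GFP control array alone, at 7.19 against 5.74. Among 19 immediate early genes Egr2 read 8.96 against 10.66, below the tamoxifen range of 9.79 to 10.07 on the stabilised array and above it on the control, while Atf3 and Klf2 were higher by 1.06 and 1.08 log2 units, and Fos and Egr1 differed by 0.53 and -0.21.

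Genes detected on 1 of the 2 arrays were counted apart, as bounds. There were 209 on the stabilised array alone, of which 27 (12.9%) were at least 2-fold higher by their bound, and 698 on the GFP control array alone, of which 92 (13.2%) were at least 2-fold lower. For 293 of the 698 the value lay too near the stabilised array's detection limit of 6.30 for any bound. Of the 10 largest bounds on the lower side, those not yet named were Mup2, a major urinary protein, at least 43.1-fold lower, the olfactory cytochrome gene Cyp2g1, at least 34.5-fold, the serpin gene Serpinb6e, at least 24.0-fold, and the aldehyde dehydrogenase gene Aldh3a1, at least 19.2-fold. On the higher side, Chga, chromogranin A of neuroendocrine cells, was at least 4.69-fold higher, the neuropeptide gene Npy at least 4.06-fold, the crystallin gene Cryba2 at least 3.76-fold and the apoptosis inhibitor gene Naip2 at least 2.94-fold. The GFP control array alone was high for Cyp2g1, at 11.41, with every other array between 4.94 and 8.0.

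The remaining genes with large differences belonged to no list. Inmt, a methyltransferase, read 9.05 on the stabilised and 6.43 on the GFP control array, with 9.10 to 9.70 on the tamoxifen arrays, so the GFP control array was low. Fcna, ficolin A, a lectin of macrophages, read 8.81 against 6.59, with 7.24 to 8.88 on the tamoxifen arrays. Adamts19, a secreted protease, read 8.88 against 6.48, with 5.34 to 7.62 on the tamoxifen arrays, and Lgi3, a secreted leucine-rich protein, 8.49 against 6.43, with 5.94 to 7.35. In these last 2 genes the stabilised array was the highest of the 6. Orm1, an acute phase protein, read 7.29 against 10.34, with 9.46 to 10.97 on the tamoxifen arrays, and the stabilised array was the low one.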

How the data were processed

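Biotin-labelled total RNA of 6 mouse wounds was measured on Illumina bead arrays (45281 probes). Per the file headers, the authors' non-normalized table gives every probe on every array a signal intensity with a detection p-value, and the arrays' median intensities range from 136.3 to 151.6. The deposited log2 table has equal quantiles on every array and lies within 0.0874 of limma's neqc (offset 16) on those intensities. Per the submitters' processing notes R 2.14 was used, and no source used here gives the normalization. From the non-normalized file, 2 lines of stray text (0.00442%) were dropped.

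Of the probes, 34885 had 1 gene symbol in the platform annotation, 18 had several and 10378 had none, and a look-up of gene identifiers in RefSeq (GRCm38.p6) changed 0 symbols. Python 3.11.15 with pandas 2.3.3 and R 4.3.3 with limma 3.58.1 were used, and the steps were tested on simulated data. A gene was given by its brightest probe by the adenovirus arrays' mean, among probes with a detection p under 0.01 on both. Where a gene was detected on 1 array, its bound is the bright value minus the higher of the dim array's lowest detected value (6.30 log2 stabilised, 6.02 GFP control) and the probe's own value. With 1 array per group no test was run, and genes were counted from 2-fold. No array was a copy of another, since identical raw signals were at most 2 per pair.

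Genes were named from Ctnnb1, sex-linked genes, the 15 largest differences each way, the 10 largest bounds each way, and in each of 37 lists (989 genes, of which 82 matched no probe) up to 6 members by size with its lead genes. Further list members and probes that set 1 array apart were named after their values were seen. The members and lists were chosen with earlier results of these data known. Alternatives covered normalization, the detection filter, a mean log2 of at least 8 and the choice of probe.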

Additional observations from a re-analysis of the deposited data

How the results depend on the processing

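No paired analysis was possible because each adenovirus group has 1 array, and for the same reason no array could be left out. A value here is 1 named gene or 1 list under 1 alternative, so genes recur, and all values come from the same 2 arrays. Of the called differences of 1 log2 unit or more, none of 853 gene values and none of 20 list values changed sign under any alternative. Among smaller ones, 11 of 992 gene values and 16 of 335 list values did, and 9 of the 16 came with equal medians alone. The count of genes at least 2-fold higher, 203, was 89 with quantile scaling and no background correction, 50 with equal medians and 121 with a mean log2 of at least 8. The count lower, 237, was 141 with quantile scaling and 517 with no detection filter. Neither the quantile nor the equal-median scaling subtracts background, which compresses low signals, and every gene counted with quantile scaling was among those counted before. The Wnt target median of -1.0 was -0.78 with quantile scaling, -1.24 with a detection p under 0.001, -0.38 with no detection filter, -0.76 with a mean of at least 8 and -0.65 with bounds. Complement and coagulation, 0.73, gave 0.56 with quantile scaling, 0.43 with equal medians, 0.28 with a p under 0.001, 0.19 with no filter, 0.67 over all probes and 0.43 with bounds. The macrophage median of 0.65 was 0.45 with equal medians. The erythroid median of 0.59 was 1.67 with a p under 0.05, with a p under 0.001 and with a mean of at least 8, and 2.13 with bounds. That of alternatively activated macrophages, 1.41, was 0.91 with no filter. Apart from the fewer or added genes of the filters and bounds, the cause was not tested. H2-K1 changed from -0.82 to 0.87 when the probes of a gene were averaged. With 1 array each, no difference of any size can be read as an effect of Cre. This holds also for differences beyond the same-group gaps of the tamoxifen arrays, which come from other mice.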

Other observations

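Hormone and extracellular matrix genes outside the lists gave further values, chosen after they were seen. Esr1, the oestrogen receptor alpha, read 7.84 on the stabilised and 6.20 on the GFP control array, with 6.27 to 7.63 on the tamoxifen arrays. Greb1, a gene known to be induced by that receptor in breast, read 8.18 against 6.25, with 5.04 to 6.27 on the tamoxifen arrays. For both genes the stabilised array was the highest of the 6. Tnxb, tenascin X of loose connective tissue, read 12.23 against 10.24, with 10.06 to 11.24 on the tamoxifen arrays.

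The share of genes at least 2-fold apart between the adenovirus arrays varied little with level. It was 5.30% of the genes with a mean log2 under 8, 4.99% from 8 to 10, 4.25% from 10 to 12 and 4.26% from 12 upward.

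Knockdown replicate 2 was the only tamoxifen array more than 8-fold above all others at several probes, 7 in all, which include 2 probes each of Tnf and Cxcl2.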
